A study of Mus musculus with 6 samples.

Results

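The genes described here were the 6 that encode the ISG15 conjugation and deconjugation system. The choice was made by name, for their role in the pathway, but with earlier results of these data known. These genes were the modifier Isg15, its activating enzyme Uba7, its conjugating enzyme Ube2l6, the ligases Herc6 and Trim25, and the protease Usp18. All 6 were found on the array, out of 37074 genes with a probe, and all passed the filter on dim probes that 22331 genes passed. Liver RNA of male WT mice and of male L1-Tg mice was compared on 3 arrays per genotype. L1-Tg mice were hemizygous for a human NPC1L1 transgene driven in hepatocytes by the APOE promoter, after backcrossing to C57BL/6J for at least 8 generations, and the WT mice were their littermates. Per the study's methods, mice were 6 to 12 weeks old and ate a control fat diet (CFD). Each array carried RNA combined from 2 or 3 mice, so the spread between arrays was a spread between pools, and it was not given which array held 2 mice and which held 3.

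ISG15 is a ubiquitin-like protein that is joined to lysines of other proteins by an E1, E2 and E3 cascade parallel to that of ubiquitin, and it also acts unconjugated, inside and outside cells. Its gene and those of its enzymes are induced by type I interferon through the complex called ISGF3, of which IRF9 is the DNA-binding part and which binds the interferon-stimulated response element (ISRE). USP18 takes ISG15 off its targets and also restrains signaling at the interferon receptor. In liver, the pathway is known from viral hepatitis and from the response to interferon treatment.

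The upstream sequence of Isg15 and that of Herc6 are shown because, of the genes with sequence here, these had the largest differences between genotypes, and their start sites differed in ISRE-like letters. RefSeq sequence (build GRCm38.p6) from 250 bases before to 50 bases after the start was given here for 5 of the 6 genes and was searched on both strands. The letters GAAANNGAAA, the core of the ISRE, were found in 3 overlapping places before Isg15, from -78 to -69, from -72 to -63 and from -66 to -57 relative to the start. They were not found in the windows of Uba7, Ube2l6, Herc6 or Trim25. Of all 32851 such windows, 3.44% held the motif. The letters TTCNNNGAA, the core of the gamma-activated site, were found in none of the 5 windows and in 8.3% of all windows. A match describes letters and not a bound site. Only exact letters were searched, so a window without a match may hold a variant of them, and it says nothing about sites further away. The 250 bases before each start are printed 5′ to 3′, with the run of overlapping ISRE-like matches in capitals. Isg15 lies on the minus strand with the stretch chr4:156200819-156201068, and Herc6 on the plus strand with chr6:57580742-57580991.
Isg15: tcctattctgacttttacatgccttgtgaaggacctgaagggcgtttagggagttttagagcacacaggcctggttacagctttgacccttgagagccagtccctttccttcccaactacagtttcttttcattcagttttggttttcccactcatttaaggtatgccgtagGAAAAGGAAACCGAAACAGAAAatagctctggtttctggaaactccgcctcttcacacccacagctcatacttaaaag
Herc6: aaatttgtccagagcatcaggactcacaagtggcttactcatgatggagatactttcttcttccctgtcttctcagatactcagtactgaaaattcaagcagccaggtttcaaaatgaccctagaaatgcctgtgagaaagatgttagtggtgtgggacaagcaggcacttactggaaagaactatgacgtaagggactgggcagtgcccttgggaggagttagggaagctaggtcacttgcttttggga

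Signals are given as the log2 of the probe's processed intensity over the 75th percentile of its array, so that 0 is a probe at that percentile. Levels of different probes on this scale are not comparable with each other, and a difference is always L1-Tg minus WT. The 8 probes of the 6 genes were well above background on all 6 arrays, and none was saturated. The 75th percentile lay between 297 and 378 intensity units and 53.1% to 59.2% of spots were well above background. All arrays were on 1 slide and were scanned once, with WT arrays, per the file headers, in one row of the slide and L1-Tg arrays in the other, so slide row and genotype cannot be told apart. The liver label was borne out by hepatocyte markers, all 8 of which were above background on every array. The probe for the mouse Npc1l1 gene does not check the human transgene. It was well above background in 1 L1-Tg pool and 2 WT pools, with log2 levels from -4.34 to -3.49, and was not tested.

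All 6 genes of the system had a higher mean signal in L1-Tg than in WT liver, from 1.26-fold for Trim25 to 3.34-fold for Isg15, and in each of them every L1-Tg pool lay above every WT pool. A higher mean was seen in 43.1% of all genes tested, and such a separation in 7.28% of them in the higher direction and in 15.9% in either. In limma, 0 of the 6 differences passed an adjusted p of 0.05 over all genes tested, where 0.121% of genes passed as higher and 0.13% in either direction. At an unadjusted p under 0.05, 5 of the 6 were higher, against 4.55% of all genes that were higher and 8.87% in either direction. Only Trim25 missed that level. The median difference over the 6 genes was 1.05, against -0.03 over all genes tested. The difference index of the study's methods, which divides the difference of the means by the sum of the SDs, exceeded its threshold of 0.7 in all 6 genes, from 0.85 to 1.94, as it did in the higher direction for 11.8% of genes tested and 8.68% of all genes on the array. It stayed above the threshold without any 1 array, but without WT pool 3 it went from 1.56 to 4.57 for Herc6 and from 1.31 to 2.29 for Isg15, and without L1-Tg pool 3 to 2.09 for Isg15. The WT mice were littermates of the L1-Tg mice, but neither labels nor methods say which pools shared litters or extraction days, so p-values measure the spread between these pools. In whole liver, more cells of one type and more RNA per cell cannot be told apart.

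**Figure D1:**
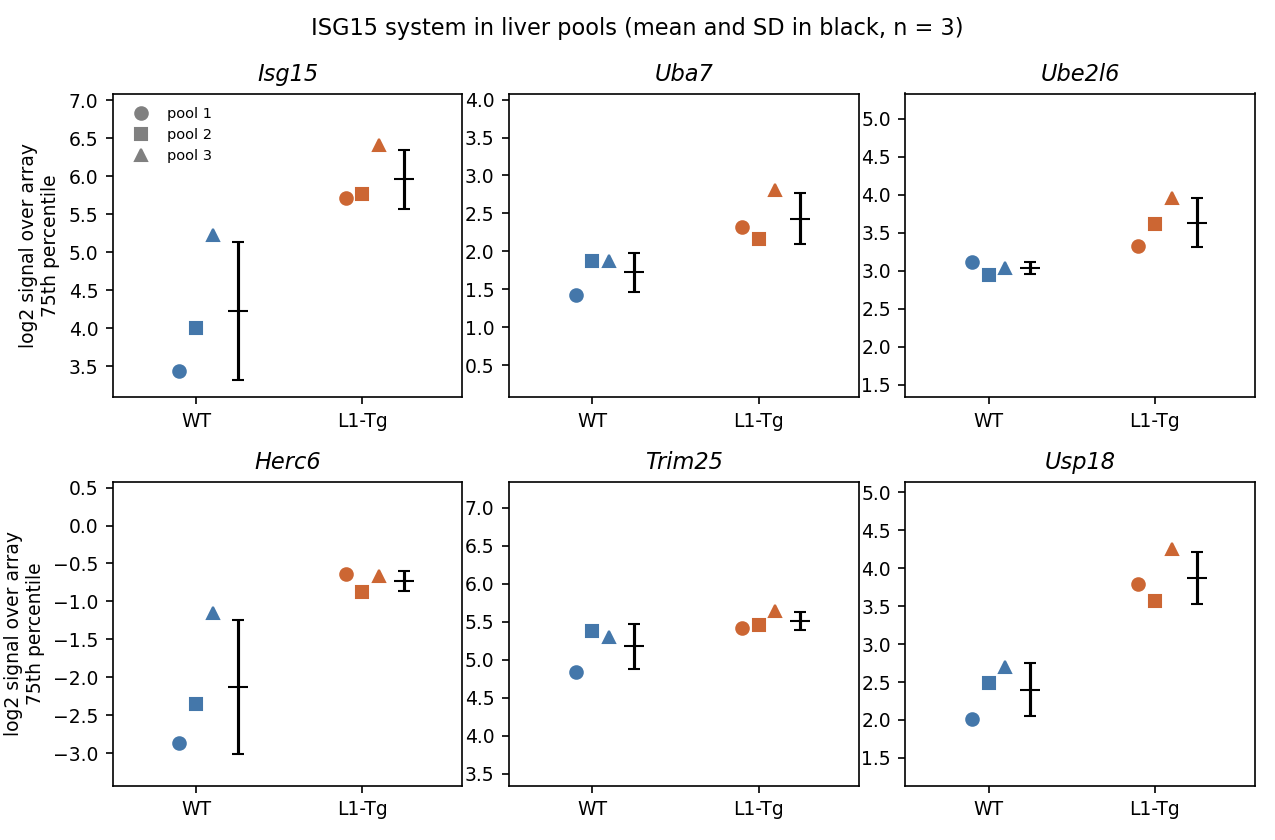
Log2 signal over the array's 75th percentile for each of the 6 genes (vertical axis, centred differently but of the same span in each panel) in the 3 WT and 3 L1-Tg pools, with a symbol for each pool and black bars for the mean and SD. In every panel the L1-Tg points lie above the WT points, with the narrowest gap, 0.04, for Trim25 and the widest, 0.88, for Usp18.

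Isg15, the modifier itself, had log2 signals of 5.71, 5.76 and 6.41 in L1-Tg pools 1 to 3 and of 3.44, 4.0 and 5.22 in WT pools 1 to 3. The WT pools were spread more widely than the L1-Tg pools, and WT pool 3 came nearest to the L1-Tg range without reaching it. The mean was 5.96 ± 0.39 (SD, n = 3) in L1-Tg and 4.22 ± 0.91 (SD, n = 3) in WT liver. The difference was 1.74 (SE 0.46), or 3.34-fold (95% confidence interval 1.55 to 7.21), with an adjusted p of 0.438 in limma (unadjusted p = 0.0082). Of all genes tested, 0.345% had a larger difference in the higher direction. The unscaled intensities were 19800, 16100 and 28600 in L1-Tg and 3430, 5020 and 12600 in WT pools. Isg15 was taken from its brighter probe, A_55_P2103698. The dimmer probe, A_66_P128537, gave 2.15, 2.11 and 2.72 in L1-Tg and -0.31, -0.04 and 1.51 in WT pools. Both probes ordered the WT pools alike and separated the genotypes, with a difference of 1.94 (SE 0.48) for the dimmer one (limma adjusted p = 0.421 over 29433 probes).

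Uba7, the E1 enzyme that activates ISG15, had log2 signals of 2.32, 2.17 and 2.81 in L1-Tg and of 1.43, 1.88 and 1.87 in WT pools. WT pool 1 was the lowest and L1-Tg pool 3 the highest, and the genotypes did not overlap. Its mean was 2.43 ± 0.33 (SD, n = 3) in L1-Tg and 1.73 ± 0.26 (SD, n = 3) in WT liver. The difference of 0.70 (SE 0.21), or 1.63-fold (95% confidence interval 1.15 to 2.31), had an adjusted p of 0.476 in limma (unadjusted p = 0.0139).

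Ube2l6, the E2 enzyme that carries ISG15 from UBA7 to the ligases, had log2 signals of 3.32, 3.62 and 3.96 in L1-Tg and of 3.12, 2.95 and 3.04 in WT pools. Here the WT pools lay closer together than the L1-Tg pools, and WT pool 1 was the highest WT pool. Mean signals were 3.64 ± 0.32 (SD, n = 3) in L1-Tg and 3.04 ± 0.08 (SD, n = 3) in WT liver. This difference of 0.60 (SE 0.17), or 1.52-fold (95% confidence interval 1.14 to 2.02), had an adjusted p of 0.461 in limma (unadjusted p = 0.0116).

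Herc6, the main ISG15 ligase of the mouse, had log2 signals of -0.64, -0.88 and -0.67 in L1-Tg and of -2.87, -2.35 and -1.15 in WT pools. Its WT pools took the same order as those of Isg15, with WT pool 3 nearest to the L1-Tg pools, and the genotypes did not overlap. It averaged -0.73 ± 0.13 (SD, n = 3) in L1-Tg and -2.12 ± 0.88 (SD, n = 3) in WT liver. The difference was 1.39 (SE 0.42), or 2.63-fold (95% confidence interval 1.31 to 5.27), with an adjusted p of 0.477 in limma (unadjusted p = 0.0141). With a normexp background correction the difference was 0.89. The brighter probe, A_52_P679860, stands for the gene. The other, A_52_P64514, gave -1.53, -1.50 and -1.43 in L1-Tg and -2.69, -2.33 and -1.93 in WT pools. It kept the genotypes apart and the WT pools in the same order at a smaller difference of 0.83 (SE 0.19, limma adjusted p = 0.4 over 29433 probes).

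Trim25, a ligase that ubiquitinates the RNA sensor RIG-I and can also attach ISG15, had log2 signals of 5.42, 5.46 and 5.64 in L1-Tg and of 4.84, 5.38 and 5.30 in WT pools. The genotypes were separated by 0.04 between L1-Tg pool 1 and WT pool 2, and WT pool 1 lay apart below the rest. Means of 5.51 ± 0.12 (SD, n = 3) in L1-Tg and 5.17 ± 0.29 (SD, n = 3) in WT liver gave the smallest difference of the system, 0.34 (SE 0.16). Its 95% confidence interval ran from -0.06 to 0.73, and its adjusted p was 0.59 in limma (unadjusted p = 0.0832). Without WT pool 1 the difference was 0.17. Without scaling between arrays the genotypes overlapped, with 13100 intensity units in L1-Tg pool 2 and 13300 in WT pool 3.

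Usp18, the protease that removes ISG15, had log2 signals of 3.79, 3.57 and 4.25 in L1-Tg and of 2.01, 2.49 and 2.70 in WT pools. No other gene of the system left so wide a gap between the genotypes, 0.88 from the lowest L1-Tg to the highest WT pool, and the spread was alike in both. The mean was 3.87 ± 0.34 (SD, n = 3) in L1-Tg and 2.40 ± 0.35 (SD, n = 3) in WT liver. The difference of 1.47 (SE 0.24), or 2.77-fold (95% confidence interval 1.86 to 4.13), had the smallest p of the 6 genes, 0.000678, and an adjusted p of 0.199 in limma. Of all genes tested, 0.336% had a smaller p.

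**Figure D2:**
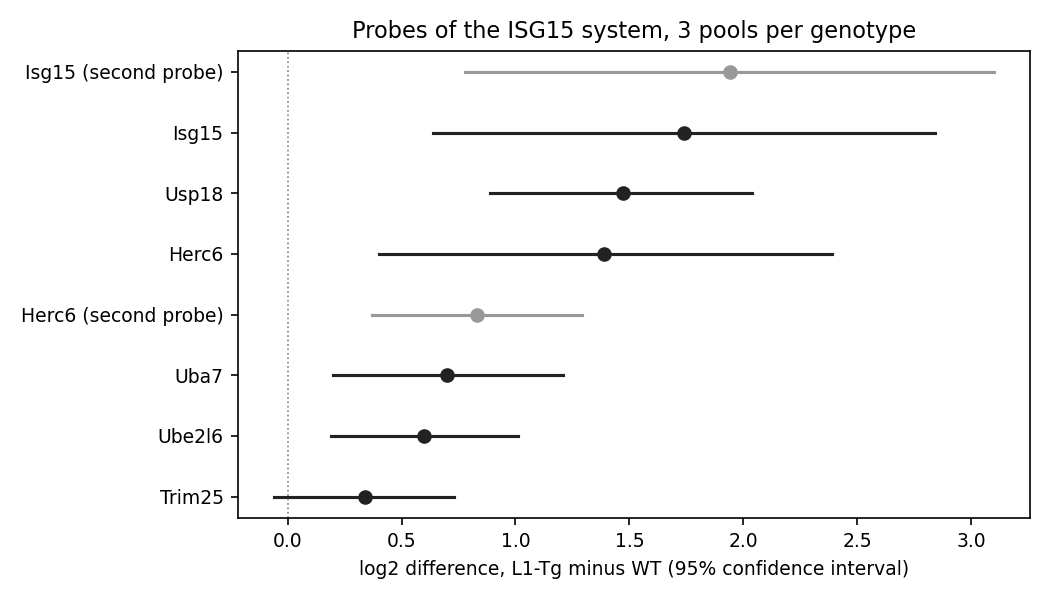
Difference in mean log2 signal, L1-Tg minus WT (horizontal axis), for each of the 6 genes (black) and for the second probes of Isg15 and Herc6 (grey), with lines for the 95% confidence interval from limma. The interval of Trim25 alone reaches 0, and the 2 probes of Isg15 have the widest intervals.

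The 6 genes did not vary as 1 block among the pools. Set against the WT mean of each gene, the median over the 6 genes was 0.99, 0.88 and 1.27 in L1-Tg pools 1 to 3 and -0.36, 0.00 and 0.22 in WT pools 1 to 3. WT pool 1 was the lowest WT pool for 5 of the 6 genes, and L1-Tg pool 3 the highest L1-Tg pool for 5 of 6. WT pool 3 was the highest WT pool for Isg15, Herc6 and Usp18, but not for Uba7, Ube2l6 or Trim25. In WT pool 3 Isg15 lay 1.00 and Herc6 0.97 above their WT means, and Usp18 0.30, Uba7 0.15, Trim25 0.12 and Ube2l6 0.01. The value of Herc6 belongs to its brighter probe. Its other probe lay at -1.93 in WT pool 3, against a WT mean of -2.32.

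The log2 distance between a pair of genes within a pool shows whether they differed by unequal amounts between genotypes, and only the shift of that distance is read. The 15 pairs were compared by an exact two-sided permutation test over the 6 pools, which cannot give a p below 0.1 and gave no adjusted p below 0.214 over the pairs. In 7 of the 15 pairs the distances of the genotypes did not overlap, as in 16.3% of all pairs of tested genes. The 15 pairs share genes and are not independent. Isg15 shifted upward against Uba7 by 1.04 and against Trim25 by 1.40 in L1-Tg liver. Herc6 shifted upward against Trim25 by 1.06 and Uba7 against Trim25 by 0.37. In the other 3 pairs Usp18 was the gene with the larger difference. The distance of Uba7 to Usp18 shifted by -0.77, that of Ube2l6 to Usp18 by -0.87 and that of Trim25 to Usp18 by -1.13. The modifier and its protease were not separated in this way, as their distance differed by 0.27 between genotypes (exact permutation p = 0.4). For Isg15 and Herc6, each by its brighter probe, the distance was 6.32 to 6.37 in the WT pools and 6.35 to 7.08 in the L1-Tg pools, a difference of 0.35 (exact permutation p = 0.2, adjusted p = 0.333). The narrow WT range and the overlap belonged to that choice of probes. With the dimmer Herc6 probe the WT distances were 6.13, 6.33 and 7.15 and the L1-Tg distances 7.24, 7.26 and 7.84, without overlap. With the dimmer Isg15 probe the genotypes did not overlap either, whichever Herc6 probe was used.

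The pattern of Isg15 over the 6 pools was compared with that of 22307 other genes by the root mean square difference of profiles centred on their means. Among genes with a symbol the closest was Ifit3, an interferon-induced antiviral gene, at 0.123 log2 units, followed by Oasl2, of the oligoadenylate synthetase family, at 0.192. Next came Ms4a7 at 0.255, Galnt3 at 0.258 and Ifit3b at 0.263. Galnt3 was well above background in 0 WT pools, and Ifit3 and Ifit3b are near-identical copies whose probes may share signal. Within the ISG15 system Herc6, by its brighter probe, was closest, at rank 9 with 0.272, followed by Usp18 at rank 33 with 0.386. Uba7 ranked 270, Ube2l6 655 and Trim25 985. These are descriptions over 6 arrays that share the contrast of genotypes.

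Upstream of the system stand the interferon receptor, its kinases and the factors that drive ISRE genes. Of 11 such genes tested, 5 were higher and 6 lower in L1-Tg liver, none passed the adjusted threshold, and the median difference was -0.04. Irf7, an interferon-induced activator of interferon genes, had log2 signals of 3.50, 3.02 and 3.68 in L1-Tg and of 0.80, 1.22 and 3.19 in WT pools. As with Isg15, WT pool 3 was far above the other WT pools, and for Irf7 it lay inside the L1-Tg range. The difference was 1.66 (SE 0.61), with a limma adjusted p of 0.536 (unadjusted p = 0.0324). Irf9 was separated between genotypes at a difference of 0.30 (SE 0.12, limma adjusted p = 0.56). Stat2, which also belongs to ISGF3, is named after its values were seen. It differed by 0.16 (SE 0.14), and the genotypes overlapped. Jak1, a kinase of the receptor, differed by -0.21 (SE 0.08, limma adjusted p = 0.547), with every L1-Tg pool below every WT pool. Of the 11 genes, 36.4% were separated in either direction, against 15.9% of all genes tested.

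Other enzymes, proteases and receptor subunits reported for ISG15 are mostly shared with ubiquitin. Of 12 listed, 10 were tested, with 7 higher, 3 lower, 0 past the adjusted threshold and a median difference of 0.03. Usp14, a proteasome-bound protease that also reacts with ISG15, had the smallest p and differed by 0.30 (SE 0.11, limma adjusted p = 0.536). The integrin LFA-1, through which free ISG15 acts on lymphocytes, is built from Itgal and Itgb2. Itgb2 differed by 0.38 and Itgal by -0.63, and the genotypes overlapped in both.

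Proteins reported to carry ISG15 were read from 15 genes, of which 8 were higher and 7 lower, with 0 past the adjusted threshold and a median of 0.01. Ddx58, which encodes RIG-I, had log2 signals of 2.96, 2.84 and 3.25 in L1-Tg and of 2.52, 2.40 and 2.38 in WT pools. All L1-Tg pools were above all WT pools, with a difference of 0.58 (SE 0.13, limma adjusted p = 0.341). Eif2ak2, the double-stranded RNA-dependent kinase PKR, was also separated, at 0.52 (SE 0.18, limma adjusted p = 0.515). Both genes are themselves induced by interferon. In 3 other targets every L1-Tg pool lay below every WT pool, with differences of -0.21 for Jak1, -0.13 for Irf3 and -0.13 for Eif4e2, the last named after its value was seen. Of the 15 genes, 33.3% were separated in either direction, against 15.9% of all genes tested.

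Each gene of the system was also set beside its relatives, taken by symbol, to see whether the differences ran through whole families. The 15 other ubiquitin-like modifiers had a median difference of 0.02, with 8 higher and 7 lower and 0 at an unadjusted p under 0.05. Ubd, which encodes the cytokine-induced modifier FAT10, had the largest difference among them, 1.40 (SE 0.80, limma adjusted p = 0.629). It was scattered, with 0.81, -1.81 and 0.32 in L1-Tg and -2.08, -0.42 and -2.36 in WT pools, and the genotypes overlapped. The 9 other E1 enzymes had a median of 0.10 and reached at most 0.21, below Uba7. Of 32 other genes tested with a Ube2 symbol, 18 were higher and 14 lower at a median of 0.01. Only 1 of them, the dim Ube2u at 0.68 (limma adjusted p = 0.588), exceeded Ube2l6. Ube2u passed the filter only through the L1-Tg pools.

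The 4 other HERC genes tested had differences from -0.46 (Herc2) to 0.17 (Herc3), against 1.39 for Herc6. Of 41 other genes tested with a Usp symbol, 20 were higher and 21 lower at a median of 0.00. The genotypes were separated in 24.4% of these 41, with 9 higher and 1 lower, against 15.9% of all genes tested. The largest difference among them, 0.30 for Usp14, was well below the 1.47 of Usp18. Trim25, in contrast, lay inside the range of its family. Of 38 other TRIM genes tested, 25 were higher and 13 lower at a median of 0.07, 6 were higher at an unadjusted p under 0.05, 0 passed the adjusted threshold, and 10 exceeded Trim25. Trim30a, an interferon-inducible member that restrains Toll-like receptor signaling, had log2 signals of 0.07, -0.16 and 0.27 in L1-Tg and of -1.53, -1.35 and -0.93 in WT pools. These did not overlap, and the difference was 1.33 (SE 0.19, limma adjusted p = 0.156). Its close copy Trim30d differed by 1.21, with which it may share signal, Trim34a by 0.63 and Trim13 by 0.54. Trim6 was well above background in 0 WT pools and in 3 L1-Tg pools, and so passed the filter only through L1-Tg liver. It is counted among the 6 TRIM genes at an unadjusted p under 0.05 and among the 10 that exceeded Trim25. With WT below background, the difference of its means has a lower limit of 2.21-fold. That limit leaves out the spread between pools, and the limma adjusted p was 0.41.

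**Figure D3:**
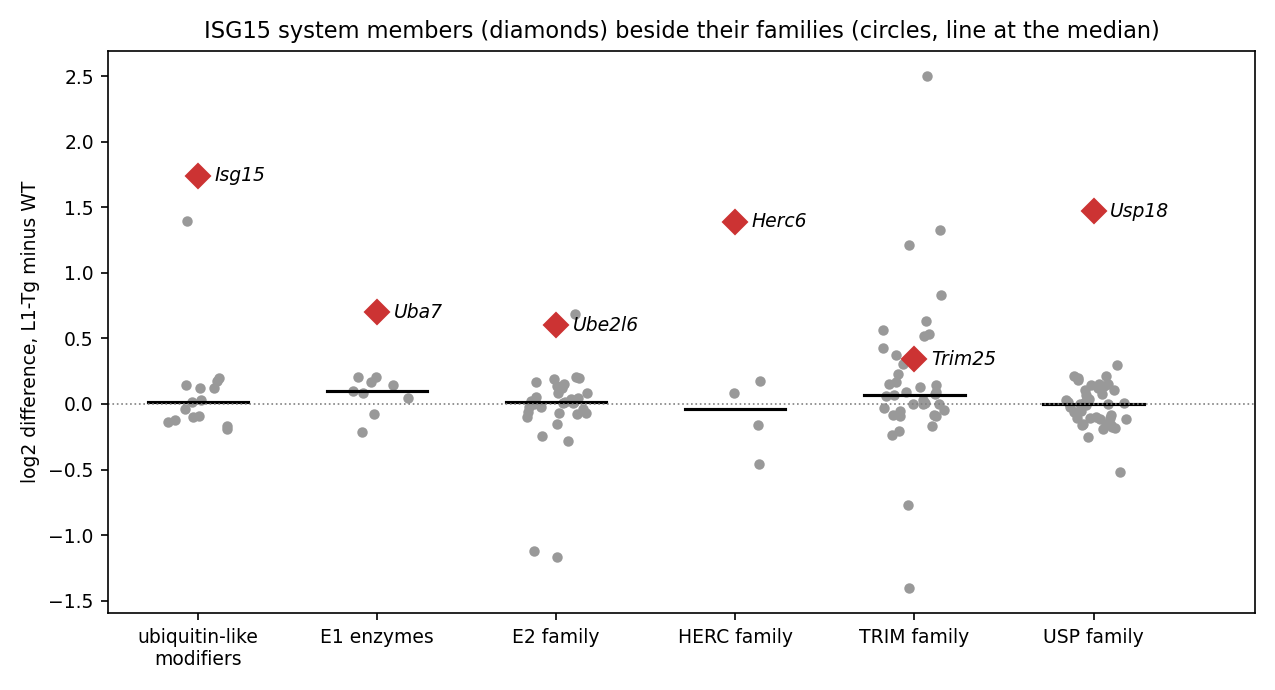
Difference in log2 signal, L1-Tg minus WT (axis in log2 units), of every tested relative of the 6 genes by family (circles, with a line at their median) and of the 6 genes themselves (diamonds). Isg15, Uba7, Herc6 and Usp18 exceed all tested relatives, Ube2u lies above Ube2l6, and 10 TRIM genes lie above Trim25, among them Trim6, whose WT value is below background and gives only a limit.

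Markers of other cells of the liver were read in the same pools. All 9 Kupffer cell and macrophage markers tested were higher in L1-Tg liver, with a median of 0.32, a range of 0.04 to 0.63 and 0 at an unadjusted p under 0.05, and in none of them were the genotypes separated. Their summed level, in multiples of the 75th percentile, was 102 to 188 in WT and 162 to 190 in L1-Tg pools. By pool, their median against the WT mean was 0.51, 0.26 and 0.40 in L1-Tg and -0.40, -0.11 and 0.52 in WT. WT pool 3 was thus as high in these markers as any L1-Tg pool. In that pool Isg15 lay 1.00 and Herc6, by its brighter probe, 0.97 above their WT means, against 1.49 to 2.19 and 1.24 to 1.48 in L1-Tg pools. With the dimmer Herc6 probe WT pool 3 lay nearer to the WT mean, at -1.93 against -2.32. Usp18 lay 0.30 and Uba7 0.15 above their WT means in WT pool 3, against 1.17 to 1.85 and 0.44 to 1.08 in L1-Tg pools. The 4 neutrophil markers tested were all higher, with a median of 0.90 and overlapping genotypes. Their summed levels were 1.62 to 4.45 in WT and 3.52 to 7.06 in L1-Tg pools, again with WT pool 3 above the other WT pools. Only 2 of these markers, S100a8 and S100a9, were above background on all arrays, with differences of 0.99 and 0.87. Mpo and Retnlg passed the filter only through the L1-Tg pools, so their higher means and the median of 0.90 are not free of that selection. Mpo, which was dim, was lowest in WT pool 3, at -5.65. The part of either cell type in the differences of Isg15, Herc6 and the other 4 genes was not tested.

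**Figure D4:**
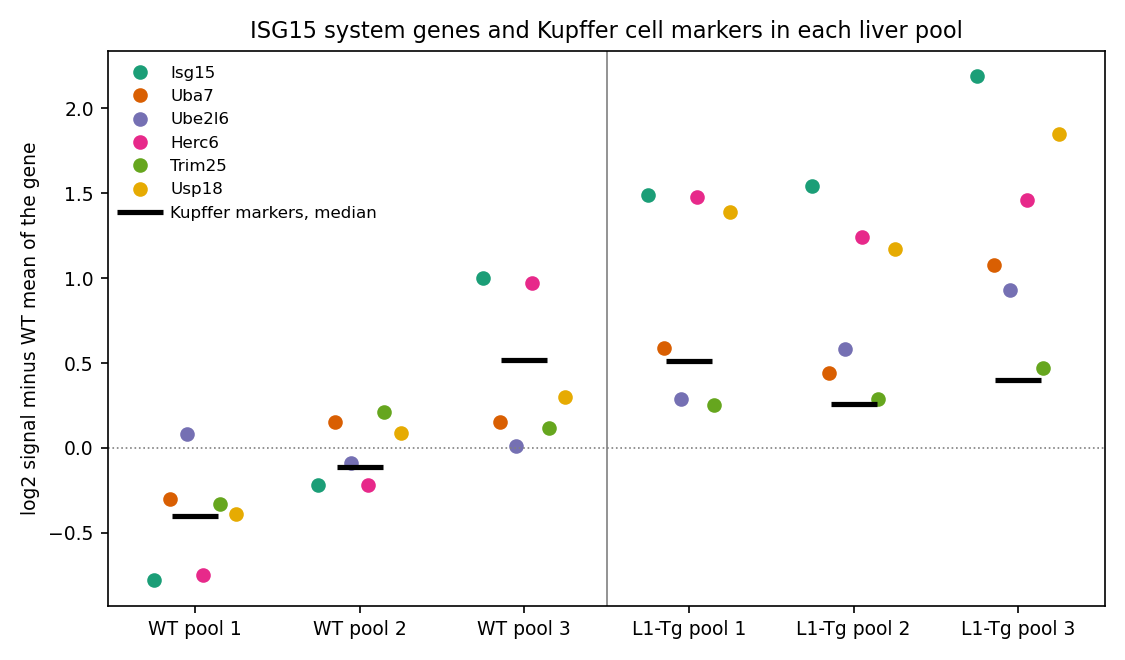
Log2 signal of each of the 6 genes minus its WT mean (points, vertical axis) in each pool (horizontal axis), with genes shifted sideways for visibility and a black bar for the median of the Kupffer cell and macrophage markers on the same scale. In WT pool 3 Isg15 lies at 1.00, Herc6 at 0.97, the other 4 genes between 0.01 and 0.30 and the marker bar at 0.52, as high as in the L1-Tg pools. Isg15 and Herc6 are shown by their brighter probes.

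Plasmacytoid dendritic cells, which make type I interferon, were read from 5 markers, of which 3 were higher and 2 lower at a median of 0.13. Bst2 differed by 1.08 and Ly6d by 1.75, with every L1-Tg pool above every WT pool, and Siglech differed by -0.18, with every L1-Tg pool below. Ccr9 differed by 0.13 and Tcf4 by -0.06, with overlapping genotypes. A separation in either direction was seen in 15.9% of all genes tested. The summed level was 322 to 358 in WT and 343 to 385 in L1-Tg pools. It was carried by the probes of Siglech, at 249 to 307, and Bst2, at 39.7 to 120 multiples of the 75th percentile. Siglech thus read in the range of the hepatocyte gene Apoa1, at 191 to 378, so the sum is not taken as a level of plasmacytoid dendritic cells. The part of plasmacytoid dendritic cells in the differences was not tested. Of 8 lymphocyte markers tested, 5 were higher and 3 lower at a median of 0.22, with summed levels of 99.1 to 234 in WT and 88.7 to 106 in L1-Tg pools. Some of the higher ones, among them Cd79a and Cd8a, passed the filter only through the L1-Tg pools. The hepatocyte markers had a median of -0.12, with 0 past the adjusted threshold and summed levels of 5480 to 6160 in WT and 5050 to 6020 in L1-Tg pools. Endothelial, stellate, cholangiocyte and erythroid markers had medians of 0.10, -0.05, -0.14 and 0.26, with 0 past the adjusted threshold in limma.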

How the data were processed

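Liver RNA of 6 pools was hybridized to 1-color Cy3 arrays of 62976 spots, which carried 55681 distinct probes and 3671 control spots. Images were read by the authors in Agilent Feature Extraction (version 10.10.1.1). Its processed signal, as deposited, is a linear intensity with background subtracted and without scaling from array to array. Genomic probe names in the files refer to mm9. A matrix of intensities, also deposited, equals these signals multiplied by a constant for each array and was used here as an alternative. Control spots were left out, non-uniform spots, 1 to 22 per array, were set as missing, and the spots of 432 repeated probes were averaged. The log2 signal minus the array's log2 75th percentile was analysed.

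Groups follow the genotype labels. A symbol was found for 27235 of the 28685 probes that carry a RefSeq-type name. A gene was represented by its brightest probe, and it was tested if every array of either genotype, or of both, marked the probe as well above background. Tests were two-sided and made with limma 3.58.1 under R 4.3.3, using lmFit and then eBayes, and p-values were adjusted by Benjamini and Hochberg over 22331 genes (threshold 0.05). In all, 29 genes passed, 0.13% of the total. With 3 arrays a group, the number of arrays sets the precision. Files were read with the data.table package (version 1.17.8) and labels with jsonlite (version 2.0.0), and the fit was tested on simulated data.

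The 6 genes and all lists of related and marker genes were chosen with earlier results of these data known. From each list the text names genes among the 5 with the smallest p, and exceptions are stated or serve to complete a complex or family. Alternatives were quantile, median and no scaling, normexp (offset 50), the deposited matrix, other filters, other probe rules, a replicate block, the methods' t-test and leaving out each array. Replicate numbers were not used to pair pools, since neither labels nor methods say that they do.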

Additional observations from a re-analysis of the deposited data

How the results depend on the processing

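The 6 genes kept their direction, and their adjusted p stayed above 0.05, under every alternative run, scalings included. Without 1 array at a time the difference ran from 1.35 to 2.24 for Isg15, 0.52 to 0.84 for Uba7, 0.44 to 0.76 for Ube2l6, 1.02 to 1.88 for Herc6, 0.17 to 0.44 for Trim25 and 1.28 to 1.62 for Usp18, and the smallest adjusted p was 0.0575, for Herc6, in limma. Under the 11 other settings the range was 1.74 to 1.85 for Isg15, 0.89 to 1.5 for Herc6 and 1.44 to 1.58 for Usp18. The count of the 6 genes at an unadjusted p under 0.05 ran from 4 (the methods' t-test) to 6, and the count without overlap was 5 without scaling. Over all genes, 29 calls became 10 without the filter on dim probes, 0 by the methods' t-test after adjustment (1837 at an unadjusted p under 0.05) and 11 with a replicate block. Without 1 array they were 15 to 36, with 17, 15 and 15 without L1-Tg pools 1 to 3 and 17, 15 and 36 without WT pools 1 to 3. With the replicate block the adjusted p was 0.237 for Isg15 and 0.203 for Usp18. Pools of the same number correlated at -0.16, 0.11 and 0.02. With 3 pools per genotype, these values cannot show whether equal numbers mark pairs. Scaling to the array median moved the median difference of all genes from -0.03 to 0.08 and the list medians with it, to 0.07 for the receptor and ISGF3 genes, 0.14 for the other ISG15 enzymes, 0.12 for the targets, 0.12 for the other modifiers, 0.21 for E1, 0.12 for E2, 0.07 for HERC, 0.18 for TRIM and 0.11 for USP genes. Without scaling they were 0.07 for the targets, modifiers and E2 genes, 0.13 for TRIM and 0.05 for USP genes. With the deposited matrix the modifiers had 0.06 and the USP genes 0.05, with normexp the other enzymes 0.09, with the mean of probes the modifiers -0.02, and with quantile normalization the TRIM genes 0.13. Without 1 array the medians ran from -0.08 to 0.04 (receptor and ISGF3), -0.01 to 0.11 (other enzymes), -0.06 to 0.09 (targets), -0.04 to 0.04 (modifiers), 0.04 to 0.15 (E1) and -0.03 to 0.03 (USP). The cause of these shifts was not tested. Dim probes, among them that of Ube2u, limit what can be compared.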
